A study of Mus musculus with 2 samples.

Results

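Microglia near amyloid plaques can enter a disease-associated (DAM) state, in which homeostatic genes fall and genes for lipid handling, lysosomes, phagocytosis and secreted factors rise. Entry into the later part of that state is known to need the lipid receptor TREM2 and its adaptor TYROBP. Cst7 (a cystatin that inhibits cathepsins), Lpl (lipoprotein lipase) and Spp1 (osteopontin) are late DAM genes. Part of the DAM microglia also carry MHC class II, which presents peptides to CD4 T cells. The cells described here had late DAM genes and fewer MHC class II counts than other late DAM cells.

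The cells were chosen by their raw counts of unique molecular identifiers (UMIs). A cell was taken where Cst7, Lpl and Spp1 summed to at least 10 counts, Cd74, H2-Aa, H2-Ab1 and H2-Eb1 (MHC class II and its invariant chain) summed to under 10, and Mrc1, Pf4, Ms4a7, Cd163 and Cbr2 (genes of border-associated macrophages, BAM) summed to under 5. These 454 gated cells were 454 of 42766. The choice used measured values, so the levels of these 12 genes and the comparison of gated with remaining cells are descriptions, with no test. Low MHC class II is meant against other late DAM cells: Cd74 was at 271 CPM in gated and 250 CPM in remaining cells (log2 ratio 0.12), and had at least 1 count in 80.6% and 19.4% of them. H2-Aa was at 8.29 against 51.0 CPM, H2-Ab1 at 38.7 against 52.9 CPM and H2-Eb1 at 2.17 against 33.1 CPM.

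Cells came from PSAPP mice, which carry transgenes with mutations of familial Alzheimer disease and form amyloid plaques, and no group without the transgenes was used here. Mice received vehicle (VEH) or lemborexant (LEM, a dual orexin receptor antagonist) at 30 mg/kg by daily oral gavage for 30 days, starting at 9 months and ending at 10 months of age. Live CD45lo CD11b+ cells of cortex and hippocampus were sorted, so a cell with high CD45 would have been lost, and the cells of 5 mice were pooled into 1 library per treatment. With 1 library each, treatment and pool cannot be told apart, no test across mice can be made, and no p-value is given. Cells with Xist and no Y-linked counts were called female, and cells with Y-linked counts and no Xist male, which gave 4 pools of library and sex. Of 172 gated VEH cells 61 were called female and 76 male, and of 282 gated LEM cells 126 and 96. The rest had no called sex and count only in the values for both sexes pooled.

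The VEH library held 18374 cells with a median of 5971 counts per cell, and the LEM library 24392 cells with a median of 6034. Gated cells were deeper, as a raw count minimum favours, and of the 172 VEH and 282 LEM gated cells 88 and 144 also met the gate after each cell was scaled to 6000 counts. Their medians were 10803.5 counts in VEH and 10997.5 in LEM against 5952 and 6006 in the remaining cells. They held 3399 and 3480 genes per cell at the median against 2554.5 and 2595. Scrublet called 6.98% of the gated VEH cells and 16.7% of the gated LEM cells doublets, against 8.35% and 14.1% of all cells of each library. Cells with both Xist and Y-linked counts, which a mixed droplet would give, were 6.40% and 11.3% of gated cells and 5.33% and 7.18% of the remaining ones. The part of depth and doublets in these results was not tested beyond the alternatives given beside them.

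The gated cells carried the markers of microglia. All 8 microglial marker genes had counts in both libraries, with a summed level of 40058 CPM (the gene's part of the summed counts, per 1e6) in VEH and 40379 in LEM, against 46377 and 47278 CPM in the remaining cells. Of 6 BAM genes outside the gate, 2 had counts in the gated cells, at summed levels of 79.5 and 78.0 CPM, against 128 and 140 CPM in the remaining cells. Stab1 was lower in gated than in remaining cells (39.3 against 121 CPM, log2 ratio -1.63), while Folr2 was higher (39.3 against 11.2 CPM, 1.81). Neutrophil, T and NK cell and oligodendrocyte precursor markers were at 0 in the gated cells of both libraries, and B cell and neuron markers at 0.537 CPM or less. Oligodendrocyte markers (2 of 4 with counts in gated VEH cells, 3 of 4 in LEM) summed to 54.2 and 63.7 CPM against 57.9 and 61.7 CPM in the remaining cells, and endothelial markers (2 of 3 in both) to 3.76 and 4.06 CPM against 13.4 and 10.2 CPM. Astrocyte markers, with counts for 4 of 4, summed to 4.83 CPM in gated VEH and 12.2 CPM in gated LEM cells, against 3.08 and 3.61 CPM in the remaining cells. Monocyte markers (2 of 4 with counts in gated VEH cells, 3 of 4 in LEM) summed to 1.07 and 8.12 CPM against 8.66 and 10.1 CPM, and dendritic cell markers (2 of 4 and 3 of 4) to 1.07 and 5.31 CPM against 5.55 and 7.93 CPM. Choroid plexus markers, of which 3 of 4 had counts in gated VEH cells and 4 of 4 in gated LEM cells, summed to 157 and 863 CPM against 439 and 1323 CPM in the remaining cells. Most of these sums came from Ttr, at 151 and 811 CPM in gated cells. At least 3 Ttr counts were held by 2 of 172 gated VEH and 3 of 282 gated LEM cells. The part of all these cell types in the LEM over VEH values was not tested.

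Cst7 gave most of the counts that brought a cell into the gate. It supplied 66.7% of the summed counts of the gate genes, Lpl 22.2% and Spp1 11.1%, and 41.9% of gated cells held at least 1 count of each. The summed count per gated cell ran from 10 through a median of 18 to 85 in VEH, and from 10 through 17 to 140 in LEM. Spp1 took a larger part of that sum in LEM (13.7%) than in VEH (6.75%). Its level was 143 CPM in gated VEH cells and 275 CPM in gated LEM cells, a log2 ratio of LEM over VEH of 0.94. The Spp1 ratio was 0.93 among female and 1.42 among male gated cells, and 0.68 in the remaining cells. Cst7 was at 1507 CPM in VEH and 1285 CPM in LEM (log2 ratio -0.23), and Lpl at 474 and 443 CPM (-0.10). Spp1, Cst7 and Lpl count toward the same minimum, so their levels inside the gate depend on each other. These ratios are descriptions and support no difference between the libraries.

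The cells on either side of the minimum are given once, as a description. There were 42 cells with a summed count of 9 and 42 with 10. In the cells at 9, Apoe stood at 7054 CPM, Itgax at 144 CPM and P2ry12 at 2539 CPM. In the cells at 10 the levels were 5068, 102 and 2488 CPM. The bins of summed count give the course across the whole range in VEH. Apoe, the lipid carrier whose human alleles alter Alzheimer risk, was at 963 CPM in cells with a sum of 0, 1661 CPM at 1 to 4, 3784 CPM at 5 to 9, 4372 CPM at 10 to 19, 5824 CPM at 20 to 49 and 9297 CPM at 50 and over. P2ry12, the purinergic receptor that marks homeostatic microglia, went the other way, from 4511 CPM at a sum of 0 to 2359 CPM at 10 to 19 and 1755 CPM at 50 and over. In LEM the end values were 1647 and 7525 CPM for Apoe and 4315 and 1771 CPM for P2ry12. The highest bin held 14 VEH and 18 LEM cells.

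**Figure D1:**
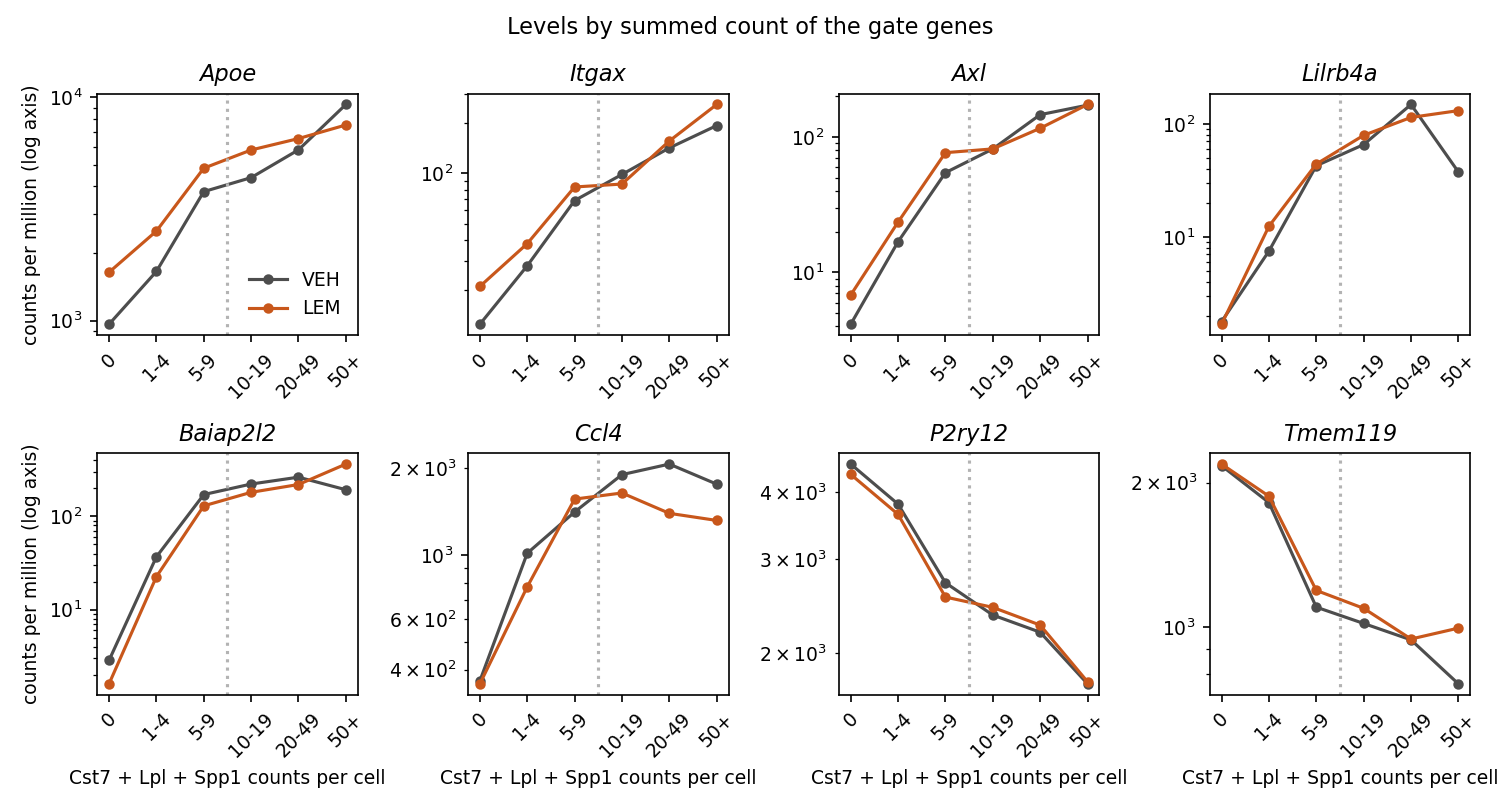
Level (CPM, log axis) of 8 genes outside the gate against the summed count of Cst7, Lpl and Spp1 per cell, for VEH and LEM cells with MHC class II and BAM counts under the limits of the gate; cells right of the dotted line are gated. Apoe, Itgax and Axl were higher and P2ry12 and Tmem119 lower in each gated bin than in cells with a sum of 0, and the step from 1 to 4 to 5 to 9 lies outside the gate.

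For the comparison with remaining cells, 8511 genes passed a detection minimum of 10% of either class, of which 260 genes (3.05%) were at least 2-fold higher in gated than in remaining cells and 254 (2.98%) at least 2-fold lower. The median log2 ratio of all these genes was -0.19, with 69.5% of them below 0 and 30.5% above, so values are best read against that shift. Scaling by the median of ratios moved the median to 0.00 and the counts to 374 higher and 124 lower. Remaining cells weighted to the depth of the gated cells gave 188 higher and 174 lower, of which 188 and 173 were among the first counts. A gene that passed the detection minimum through the gated cells alone had to be higher in them, so the counts over lists below describe the gate and support nothing.

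Late DAM genes outside the gate were higher in the gated cells. Of 31 in the table, 27 passed the detection minimum, all 27 had ratios above 0 in each of the 4 pools, and 21 were at least 2-fold higher (77.8%, against 3.05% of all genes), with a median log2 ratio of 1.89. Ch25h, which makes 25-hydroxycholesterol, had the highest ratio, at 77.3 CPM in gated and 1.84 CPM in remaining VEH cells, and 49.9 against 1.70 CPM in LEM (log2 ratio 5.09, 4.88 to 5.30). Few cells carried it: 5 cells gave 61.1% of its counts in gated VEH cells and 40.0% in gated LEM cells. Igf1, a growth factor, was at 69.3 against 2.80 CPM in VEH and 77.1 against 3.22 CPM in LEM (4.61, 4.43 to 4.79). Lilrb4a, an inhibitory receptor with a close paralog that can share reads, was at 95.6 against 4.72 CPM and 96.8 against 5.59 CPM (4.21). Baiap2l2, which bends membranes with actin, was at 236 against 17.9 CPM and 210 against 11.7 CPM (3.94). Thinned to 2000 counts per cell, Baiap2l2 would be found in 32.4% of gated and 1.90% of remaining VEH cells, and in 29.7% and 1.19% in LEM.

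Other late DAM genes with known roles followed the same direction. Axl, a TAM receptor for apoptotic cells, was at 116 against 11.4 CPM in VEH and 102 against 14.5 CPM in LEM (log2 ratio 3.02). Csf1, the growth factor of the macrophage lineage, was at 201 against 33.6 CPM and 214 against 31.6 CPM (2.69). Itgax, which encodes CD11c, was at 125 against 23.6 CPM and 126 against 30.6 CPM (2.18). Values at the low end were those of Cd34 (0.40), Itgb2 (0.47) and Gpr84 (0.64). The 4 genes that missed the detection minimum were Gpnmb, Dkk2, Apoc1 and Apoc4. Gpnmb, a lysosomal glycoprotein often listed for DAM, had 31 counts in gated VEH cells, and 31 of them lay in 1 cell, while its 30 counts in gated LEM cells lay in 3 cells.

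The promoters of Igf1, Itgax, Cst7 and Cd68 are shown over the part that holds TGANTCA, a pattern that includes the AP-1 site TGAGTCA. This motif was more common among the higher genes, and also among the lower genes, than among all genes tested. Igf1 and Itgax are among the 260 higher genes. Cst7 is a gate gene and was left out of them, and Cd68 (log2 ratio 0.99) lay just under the limit. Of the 260 genes, 200 had a promoter in the RefSeq table (GRCm38.p6, 250 bases before to 50 after the start), and 23 of those (11.5%) held the motif, against 5.71% of 6850 promoters of all genes tested and 8.90% of 191 promoters of the 254 lower genes. Over the 27025 genes of the table the share was 8.97%. For CACGTG, the site of TFE and USF factors, the shares were 11.5% of higher genes, 10.5% of lower genes and 12.9% of genes tested, and for GAGGAAGT, a PU.1 site, 5.50%, 6.81% and 4.20%, each read on both strands. Among the 34 late DAM and gate genes, 25 had a promoter and 5 of these held TGANTCA (Cd68, Cst7, Gpnmb, Igf1 and Itgax), 4 CACGTG and 2 GAGGAAGT. Each line gives the 80 bases before and the 20 bases from a RefSeq start, 5′ to 3′ along the gene, with the match in capitals. In Igf1 and Itgax that start lies inside the gene's RefSeq span, which begins at 87858265 and 128129526. The match begins 37 bases before the start used in Igf1, 56 in Itgax, 6 in Cst7 and 24 in Cd68. Itgax and Cd68 hold TGAGTCA, while the matches in Igf1 (TGAATCA) and Cst7 (TGATTCA) are not of the AP-1 form. These genes were picked for their match after the promoters were searched. A match is a stretch of letters and no evidence of binding.
Igf1 (chr10:87861031-87861130, plus strand): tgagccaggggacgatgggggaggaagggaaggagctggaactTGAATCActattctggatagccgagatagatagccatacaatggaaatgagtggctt
Itgax (chr7:128129470-128129569, plus strand): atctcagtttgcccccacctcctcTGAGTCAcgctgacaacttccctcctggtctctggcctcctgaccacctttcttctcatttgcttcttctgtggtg
Cst7 (chr2:150570335-150570434, plus strand): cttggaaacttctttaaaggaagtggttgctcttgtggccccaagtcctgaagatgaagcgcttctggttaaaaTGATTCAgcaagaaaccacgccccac
Cd68 (chr11:69666151-69666250, minus strand): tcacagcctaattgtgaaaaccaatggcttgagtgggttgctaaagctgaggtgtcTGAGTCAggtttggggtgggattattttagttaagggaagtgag

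Early DAM genes, which are known to change before TREM2 is needed, were higher too. All 9 were above 0 in the 4 pools (1370 of all 8511 genes were) and 6 were at least 2-fold higher (3.05% of all genes), with a median log2 ratio of 1.16. Lyz2 (lysozyme) was at 1498 against 324 CPM in VEH and 1676 against 396 CPM in LEM (2.14). Apoe was at 5435 against 1360 CPM in VEH and 6222 against 2068 CPM in LEM (1.75), and its ratio was 2.26 and 2.07 in the female and male VEH pools and 2.23 and 1.58 in those of LEM. Cells with at least 3 Apoe counts were 82.6% of gated VEH and 89.4% of gated LEM cells, against 38.5% and 59.6% of remaining cells. Tyrobp was at 7746 against 2830 CPM in VEH and 7573 against 2921 CPM in LEM (1.41). Trem2 itself was at 4177 against 2322 CPM and 4144 against 2338 CPM (0.83). Of 13 genes of the TREM2 list, 10 were below 0, near the 69.5% of all genes, among them the kinase Syk (-0.75) and the phospholipase Plcg2 (-0.64), and Tyrobp and its relative Hcst (1.47) were the 2 at least 2-fold higher (3.05% of all genes). The DAM genes named by the study were above 0 in 10 of 10, but they were chosen on these samples and are not independent evidence.

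Homeostatic genes were lower by smaller amounts. Of 31 tested, 28 were below 0, 27 in each of the 4 pools (3610 of all 8511 genes), and 5 were at least 2-fold lower (16.1%, against 2.98% of all genes), with a median log2 ratio of -0.76. Crybb1, a crystallin of mature microglia, was at 114 against 432 CPM in VEH and 125 against 469 CPM in LEM (-1.91). Tmem119 was at 962 against 2069 CPM and 1030 against 2099 CPM (-1.05). P2ry12 was at 2232 against 4320 CPM and 2319 against 4139 CPM (-0.88). Cx3cr1, the fractalkine receptor, was at -0.76 and Sall1, a transcription factor that defines microglia, at -0.78. Tgfbr2 was the highest at 0.37. After thinning, Tmem119 would be found in 76.3% of gated and 94.6% of remaining VEH cells, so most gated cells still held it.

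**Figure D2:**
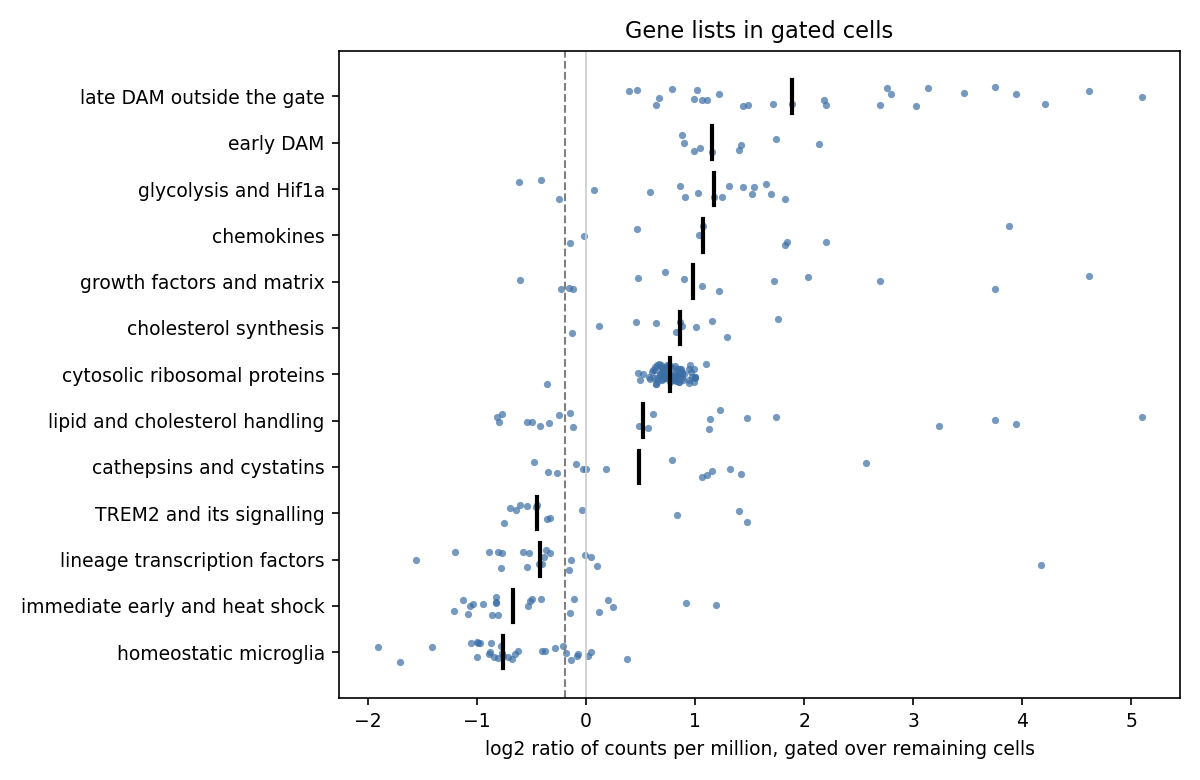
Log2 ratio of CPM in gated over remaining cells for the genes of 13 lists that passed the detection minimum; each point is a gene, the black bar is the list's median and the dashed line the median of all 8511 genes (-0.19). Late DAM genes (median 1.89) lie to the right and homeostatic genes (median -0.76) to the left, and the list of lipid genes spreads to both sides.

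Of the 15 highest genes that had the same direction in the 4 pools, Hpse, Bhlhe40, Dcstamp, Fabp3, Rab7b, Cxcl14, Lgals3, Tmem163, Flt1 and Gm1673 were not on the late DAM list. Hpse (heparanase) was at 10.7 against 0.86 CPM in VEH and 21.8 against 1.03 CPM in LEM (log2 ratio 4.22). Bhlhe40, a transcription factor of macrophages that also belongs to the clock feedback loop, was at 40.3 against 2.25 CPM and 31.8 against 1.71 CPM (4.17), while its paralog Bhlhe41 was at 0.05. Dcstamp, known for fusion of osteoclasts, had a ratio of 3.98, the fatty acid binding gene Fabp3 3.94, the small GTPase Rab7b 3.91 and the chemokine Cxcl14 3.88. Lgals3 (galectin-3) had 3.75, the zinc transporter Tmem163 3.72, the VEGF receptor Flt1 3.58 and Gm1673 3.56. Fabp5 (3.75) has pseudogenes that can share its reads. The 15 lowest included Gm31243 (-3.60), Ctnnd2, a catenin (-2.79), Tmem204 (-2.68), Bank1, an adaptor known from B cells (-2.62), the lectin receptor Clec4a2 (-2.22) and Serpinf1 (-2.05). Bank1 was at 25.2 against 148 CPM in VEH and 23.7 against 151 CPM in LEM.

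Lipid genes split. Of 22 tested, 9 were at least 2-fold higher and 10 were below 0, against 3.05% and 69.5% of all genes. The higher ones included Plin2, which coats lipid droplets (77.3 against 28.8 CPM in VEH, 81.5 against 28.8 CPM in LEM, log2 ratio 1.47), Scd2 (1.23) and Npc2, which carries cholesterol in lysosomes (1.12). The cholesterol exporter Abca1 was at 223 against 380 CPM in VEH and 229 against 403 CPM in LEM (-0.79), Abcg1 was at -0.15, and Mylip, an E3 ubiquitin ligase, was at -0.82. Of 11 cholesterol synthesis genes, 10 were above 0 and 4 at least 2-fold higher, against 30.5% and 3.05% of all genes, led by Insig1 (1.76), Sc5d (1.29) and Fdps (1.16).

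Glycolysis genes were higher in gated cells, with 10 of 17 at least 2-fold, against 3.05% of all genes (median 1.18). In each of the 4 pools 14 were above 0, as were 1370 of all 8511 genes. The lactate exporter Slc16a3 was at 154 against 39.1 CPM in VEH and 114 against 34.0 CPM in LEM (1.83), Pkm at 586 against 193 CPM and 609 against 190 CPM (1.65), and Hif1a, the hypoxia factor that drives many of these genes, at 298 against 103 CPM and 265 against 102 CPM (1.44). The hexokinases were not among them, with Hk1 at -0.61, Hk2 at -0.41 and Hk3 at -0.25. Nuclear genes of oxidative phosphorylation had a median of 0.41 over 77 genes with 3 at least 2-fold higher, near the 3.05% of all genes, and 79 of 80 ribosomal protein genes were above 0 in each pool (median 0.77). With remaining cells weighted to the depth of gated cells the medians of glycolysis, ribosomal and late DAM genes were 0.95, 0.65 and 1.46.

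Of 9 chemokine genes, 6 were at least 2-fold higher, against 3.05% of all genes. Ccl4 was at 1951 against 493 CPM in VEH and 1521 against 449 CPM in LEM (1.84), and Ccl3 at 1420 against 404 CPM and 1366 against 384 CPM (1.82). Cells with at least 3 counts of Ccl3 and Ccl4 together were 84.3% of gated VEH and 83.7% of gated LEM cells against 30.2% and 30.4% of remaining cells. Ccl2 (-0.15) and Ccl12 (-0.02) were near the level of remaining cells. Among 14 growth factor and matrix genes 7 were at least 2-fold higher (3.05% of all genes), with Igf1, Lgals3, Csf1 and Anxa5 (2.04) at the top and Hbegf lowest (-0.60).

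Lysosomal proteases were uneven. Against 3.05% of all genes, 6 of 14 cathepsins and cystatins were at least 2-fold higher, namely Ctse (2.56), Ctsb (1.42), Cstb (1.32), Ctsd (1.16), Ctsz (1.11) and Ctsl (1.07). Ctsd was at 22324 against 9174 CPM in VEH and 21539 against 10233 CPM in LEM. Cst3 (-0.10), Ctsh (0.00) and Ctss (0.18) were close to the remaining cells, and Lgmn was at -0.48. The 30 lysosomal hydrolase and membrane protein genes had a median of 0.46 with 3 at least 2-fold higher (against the same 3.05%), and the 15 V-ATPase genes a median of 0.28, the highest at 0.73.

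Transcription factors of the microglial lineage were below 0 in 17 of 20, against 69.5% of all genes, with Etv1 (-1.56) and Maf (-1.20) past 2-fold, whereas Irf8 was at 0.10 and Mitf at -0.01. Immediate early and heat shock genes, which also respond to tissue dissociation, were below 0 in 17 of 22 (median -0.67), against 69.5% of all genes (median -0.19), with Jun at 1640 against 3553 CPM in VEH and 1422 against 3077 CPM in LEM (-1.13) and Fos at -1.08. Egr2 (1.19) was the exception past 2-fold. Inhibitory receptors went both ways, with Cd274, which encodes PD-L1 (1.62), and Pdcd1, which encodes PD-1 (1.23), higher than in remaining cells and Siglece (-1.90) and Pirb (-1.16) lower. Ferroportin, Slc40a1, was at -1.46, and Cybb, the catalytic subunit of the phagocyte oxidase, at 2.29.

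Cycling genes were found in more of the gated than of the remaining cells. At least 3 counts of Mcm3, Mcm5 and Mcm6 were held by 10.5% of gated VEH cells (6.32 to 16.0) and 11% of gated LEM cells (7.59 to 15.2), against 2.0% and 3.04% of remaining cells. Scaled to 6000 counts per cell, the shares were 4.07% and 3.90% against 1.39% and 1.77%. At least 3 counts of Mki67, Top2a and Ube2c were held by 4.65% (2.03 to 8.96) and 4.26% (2.22 to 7.32), against 0.731% and 0.784%, and scaled by 2.91% and 3.55% against 0.659% and 0.763%. In late DAM cells with 10 or more MHC class II counts the Mcm shares were 4.33% in VEH and 8.06% in LEM. Their shares for Mki67, Top2a and Ube2c were 1.57% and 4.03%. Scaled, these were 0.787% and 1.83%, and 1.18% and 2.56%. Unscaled shares of both gene sets were above those of remaining cells in VEH and LEM, so such shares were not particular to the gate. Scaled shares were above them for Mki67, Top2a and Ube2c in both libraries. For the Mcm genes the scaled share was below that of remaining cells in VEH and near it in LEM. Counts of these genes alone do not show that a cell divides.

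The gated cells were compared with the 527 cells that reached the late DAM minimum with 10 or more MHC class II counts. Those cells were deeper, with medians of 12277.5 counts in VEH and 13763 in LEM. Of 8760 genes, 9 (0.103%) were at least 2-fold higher in them than in gated cells and 19 (0.217%) at least 2-fold lower, around a median of -0.10. Itgax was at 277 CPM in VEH and 271 CPM in LEM in the high MHC class II cells against 125 and 126 CPM in gated cells (log2 ratio 1.12). H2-DMa, which loads peptides onto MHC class II, was at 288 and 216 CPM against 136 and 120 CPM (0.98), a gene outside the gate that belongs to the same pathway. Lilrb4a went the other way, at 30.0 and 25.9 CPM against 95.6 and 96.8 CPM in gated cells (-1.79). Lgals3 was at 11.6 and 20.7 CPM against 49.9 and 70.9 CPM (-1.94), Nes, which encodes nestin, at 8.37 and 11.9 CPM against 22 and 27.8 CPM (-1.32), and Mcm5 at 9.02 and 12.1 CPM against 22 and 22.8 CPM (-1.07). All 12 S phase genes tested were lower in the high MHC class II cells (median -0.48, VEH -0.88, LEM -0.29), as were 70.8% of all genes. The 27 late DAM genes were close between both classes, with a median of 0.18, 1 past 2-fold higher (Itgax) and 1 past 2-fold lower (Lilrb4a), and 14 of 14 cholesterol synthesis genes were above 0 in the high class (median 0.36), against 29.2% of all genes.

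**Figure D3:**
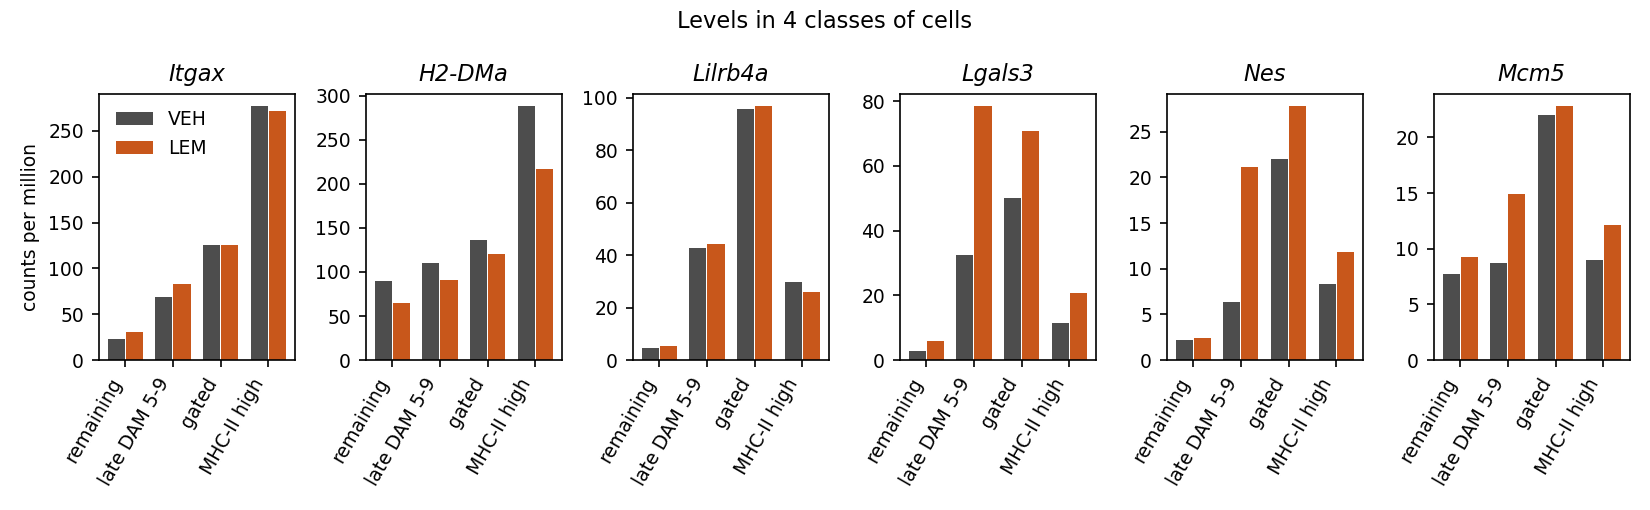
Level (CPM) of 6 genes in remaining cells, cells with a late DAM sum of 5 to 9, gated cells and late DAM cells with high MHC class II, for VEH and LEM; bars are summed counts of 1 library and have no replicate error. Itgax and H2-DMa were highest in the high MHC class II cells and Lilrb4a and Mcm5 in the gated cells, in both libraries; Lgals3 was highest in gated cells in VEH and in the cells of 5 to 9 in LEM.

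The share of gated cells was compared between the libraries. It was 0.936% in VEH (172 of 18374, 0.802 to 1.09, Clopper-Pearson) and 1.16% in LEM (282 of 24392, 1.03 to 1.30), a log2 ratio of 0.30 (0.03 to 0.59). Among female cells it was 1.07% in VEH and 1.5% in LEM (log2 ratio 0.48, 0.03 to 0.95), and among male cells 0.842% and 0.855% (0.02, -0.43 to 0.48). The interval of the pooled ratio held 0 with a minimum of 20 counts (0.25, -0.18 to 0.68), with the gate scaled to 6000 counts (0.24, -0.06 to 0.55) and without Scrublet doublets (0.24, -0.06 to 0.54). It also held 0 with MHC class II under 20 (0.24, -0.0017 to 0.48) and with cells of at least 2000 counts (0.27, -0.0095 to 0.55). Late DAM cells with high MHC class II went the other way, from 1.38% in VEH to 1.12% in LEM (-0.30, -0.56 to -0.05), and late DAM cells of any MHC class II were at a ratio of -0.02 (-0.20 to 0.17), with 0.22 (-0.10 to 0.54) among female and -0.31 (-0.59 to -0.03) among male cells. The high MHC class II ratio was -0.10 (-0.56 to 0.37) for female cells and -0.55 (-0.92 to -0.18) for male ones. Intervals cover counting error and not the difference between pools of mice.

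**Figure D4:**
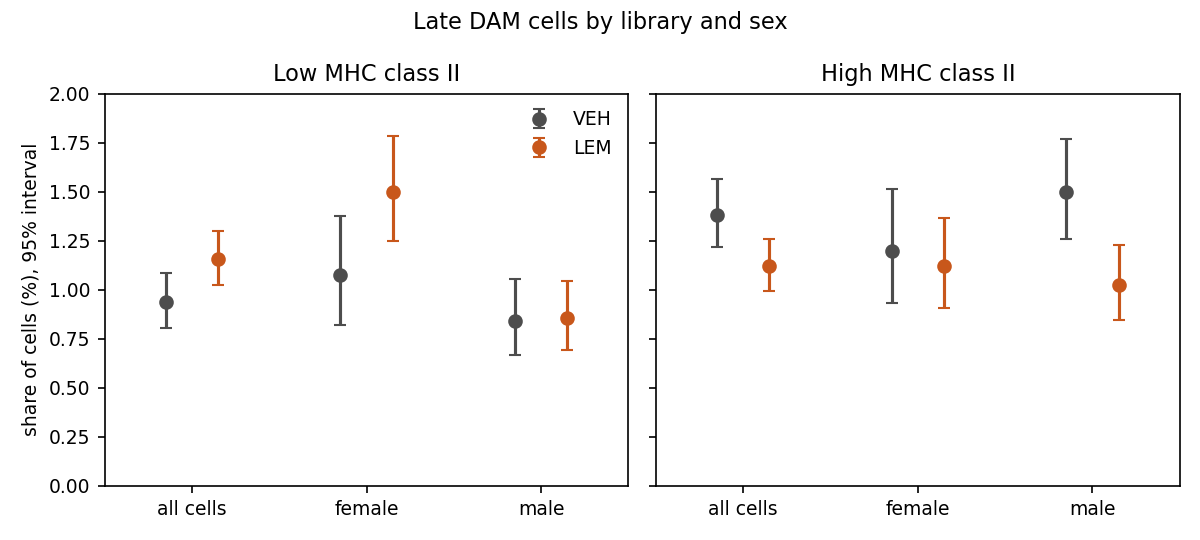
Share of cells (%) that reached the late DAM minimum with low (gated) or high MHC class II, for all, female and male cells of the VEH and LEM libraries; points are the shares and bars exact 95% binomial intervals for counting error. The gated share of female cells was 1.07% in VEH and 1.5% in LEM, and the high MHC class II share of male cells 1.5% and 1.02%.

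Within late DAM cells the part with low MHC class II was larger in LEM. It was 40.4% of 426 cells in VEH (35.7 to 45.2) and 50.8% of 555 cells in LEM (46.6 to 55.0), a difference of 10.4 percentage points. Female cells gave 47.3% (38.4 to 56.3) and 57.3% (50.4 to 63.9), and male cells 36% (29.5 to 42.9) and 45.5% (38.6 to 52.5). Within each sex the intervals of the libraries overlapped. With other limits, added after the data were seen, the difference ran from 9.07 points without doublets to 15.6 points with the gate scaled to 6000 counts. The levels of the 4 MHC class II genes are those the gate used, so they describe the same difference and add no support to it. Over all cells at the late DAM minimum Cd74 was at 2493 CPM in VEH and 1891 CPM in LEM, H2-Aa at 466 and 298 CPM, H2-Ab1 at 444 and 299 CPM and H2-Eb1 at 206 and 130 CPM. In male cells each of the 4 genes was lower in LEM, with Cd74 at 2861 and 2436 CPM. In female cells Cd74 was lower (1680 and 1399 CPM), whereas H2-Aa (213 and 225 CPM), H2-Ab1 (231 and 232 CPM) and H2-Eb1 (71.8 and 109 CPM) were not. In cells under the late DAM minimum Cd74 was at 126 CPM in VEH and 115 CPM in LEM.

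LEM was then compared with VEH inside the gate. Of 8741 genes detected in at least 10% of gated cells of either library, 549 (6.28%) had a log2 ratio of 0.5 or more and 365 (4.18%) of -0.5 or less, around a median of 0.04, and 445 (5.09%) and 299 (3.42%) of these had the same sign in both sexes. For 40 (0.458%) and 54 (0.618%) genes the intervals lay above and below 0 in both sexes. In the remaining cells, with far more counts, 0.629% of the same genes were past 0.5 in each direction. The gate set the same late DAM minimum in both libraries, which favours like levels of late DAM genes inside it. Values near 0 for these genes are therefore descriptions of the gated cells. Over the 27 late DAM genes the median was 0.01, with 0 at 0.5 or more and 2 at -0.5 or less (7.41%, against 4.18% of all genes). These were Ccl6, at 1064 CPM in VEH and 686 CPM in LEM (-0.63, and -0.79 in remaining cells), and Ch25h, at 77.3 and 49.9 CPM (-0.63, -0.96 to -0.30), with -0.22 among female and -1.54 among male cells. A few cells gave much of the Ch25h counts, as described above, and its interval does not cover the spread between cells. Itgax was at 125 and 126 CPM (0.01), Lilrb4a at 95.6 and 96.8 CPM (0.02), Axl at 116 and 102 CPM (-0.19) and Trem2 at 4177 and 4144 CPM (-0.01).

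The 27 late DAM genes had a median of 0.06 in the remaining cells. There Ch25h was at -0.11 and Trem2 at 0.01. Apoe had a log2 ratio of 0.20 (0.16 to 0.23) in gated cells and 0.61 in remaining cells. Its gated ratio was 0.43 among female and 0.24 among male cells, so the pooled value lay below both. Female cells were 44.5% of gated cells with a called sex in VEH and 56.8% in LEM. In gated VEH cells Apoe was at 3772 CPM in female and 6990 CPM in male cells, and the part of sex make-up in the pooled ratio was not tested. In gated and remaining cells, Itgax was at 0.01 and 0.38, Axl at -0.19 and 0.35, Cd9 at 0.03 and 0.32, and Cd63 at 0.10 and 0.39. The 10 DAM genes named by the study had a median of -0.01 in gated cells, with 5 above and 5 below 0, and of 0.24 in remaining cells, and since the study named them from these samples this is no independent evidence. Both comparisons rest on the same pair of pools. Because the gate set the same late DAM minimum in both libraries, smaller ratios inside it cannot show that late DAM cells responded less. Homeostatic genes had a median of 0.06, with P2ry12 at 0.06 and Tmem119 at 0.10. Of the phagocytosis genes that the study named, likewise from these samples, 1 of 7 was past 0.5, against 6.28% of all genes (Fgl2, 23.6 and 38.1 CPM, 0.69). Colec12 lay just under that limit at 0.496, with 2.77 among female and -0.02 among male cells. In remaining cells the 7 ratios ran from 0.39 (Cd63) to 0.70 (Colec12). Of the study's 11 homeostatic genes (median -0.10, 4 above 0) 2 were at -0.5 or less, against 4.18% of all genes. These were Gp9 (19.9 and 12.2 CPM, -0.71) and the glutamate transporter Slc1a3, at 918 CPM in VEH and 490 CPM in LEM (-0.90, with -0.03 in female and -1.24 in male cells).

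Interferon response genes had the highest median of the lists in LEM over VEH when both sexes were pooled. All 20 tested were above 0, against 56.9% of all genes, and 14 (70.0%) were at 0.5 or more, against 6.28% of all genes, with a median of 0.67 in gated and 0.27 in remaining cells. Ifitm3 was at 77.9 CPM in VEH and 124 CPM in LEM (0.67, 0.39 to 0.95), Ifi27l2a at 270 and 399 CPM (0.57), Ly6e at 603 and 1158 CPM (0.94) and Isg15 at 17.7 and 30.9 CPM (0.80). The study named Ifi27l2a, Ifitm3 and Ly6e as raised by LEM from these same samples, so they are no independent evidence. The sexes had opposite medians, a difference that was not tested. Inside the gate, female over male ratios of 0.5 or more were found for 11.3% of genes in VEH and 11.2% in LEM, and of -0.5 or less for 16.3% and 7.44%. Among female gated cells 20 of 20 were above 0 with a median of 0.96, and among male gated cells 6 of 20 were above 0 with a median of -0.29. The median of all genes was 0.05 among female and 0.0004 among male gated cells. The summed level of the list was higher in LEM in each sex, at 1672 and 2699 CPM in female and 1780 and 2310 CPM in male gated cells. Ly6e was above 0 in both (0.61 and 1.15) and was at 0.97 in remaining cells. Cells with at least 3 counts of Ifit3, Isg15 and Irf7 together were 6 of 172 in VEH (3.49%, 1.29 to 7.44) and 21 of 282 in LEM (7.45%, 4.67 to 11.2). In remaining cells the shares were 2.15% in VEH and 2.99% in LEM, and in late DAM cells with high MHC class II 7.48% and 12.5%. Scaled to 6000 counts per cell the shares were 2.91% and 3.55% in gated cells. They were 1.94% and 2.41% in remaining cells, and 2.76% and 5.13% in the high MHC class II cells. Without the gated interferon cells, an alternative chosen after seeing the data, the genes at 0.5 or more went from 14 to 9 of 20, 19 were above 0 and the median was 0.48. Among female gated cells 1 of 61 in VEH (1.64%) and 11 of 126 in LEM (8.73%) were such cells, and among male gated cells 5 of 76 (6.58%) and 4 of 96 (4.17%).

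Of the 30 genes named by the largest ratios with intervals beyond 0 in both sexes, 29 had the same sign in the remaining cells. In those cells 17 were past 0.5 as well, against 0.629% of all 8741 genes in each direction. The share of all genes with the same sign in gated and remaining cells is not given here, so the 29 cannot be set against it. Cfap77 was at 1374 CPM in gated VEH and 342 CPM in gated LEM cells (-2.01) and at -1.83 in remaining cells. Pianp was at 111 and 28.1 CPM (-1.98, remaining -2.08), and Qpct, which cyclises N-terminal glutamine, at 20.9 and 67.1 CPM (1.68, remaining 1.93). Gapdh was at 833 and 2230 CPM (1.42, remaining 1.24) and Rpl29 at 601 and 260 CPM (-1.21, remaining -1.0), and both have many pseudogenes that can share reads. Klf2, a factor of quiescence, was at 206 and 115 CPM (-0.84, remaining -0.82). Such ratios were present in both gated and remaining cells.

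For 15 of the 30 genes the interval inside the gate lay apart from that of the remaining cells. The 30 were chosen for large ratios inside the gate, which favours this, so the count shows nothing particular to the gate. Ier3, an immediate early gene, was at 198 CPM in VEH and 98.0 CPM in LEM (-1.01, -1.23 to -0.79), against -0.10 in remaining cells. Tcim was at 58.0 and 28.1 CPM (-1.05, -1.47 to -0.63), against 0.39, the 1 gene of the 30 with opposite signs. Vim, which encodes vimentin, was at 15 and 30.6 CPM (1.02, 0.41 to 1.69), against 0.19, and 5 cells gave 53.6% of its counts in VEH and 36.7% in LEM. Alg14 was at 16.6 and 34.6 CPM (1.06, against 0.08), Arl3 at 22 and 39.0 CPM (0.83, against 0.17) and Blzf1 at 4.30 and 15 CPM (1.80, against 0.29). Among histones, whose copies share sequence, Hist1h4c was at 20.4 and 9.36 CPM (-1.12, against -0.15). Lgals1 (galectin-1) was at 61.8 and 34.3 CPM (-0.85, against -0.43), with intervals that overlapped.

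**Figure D5:**
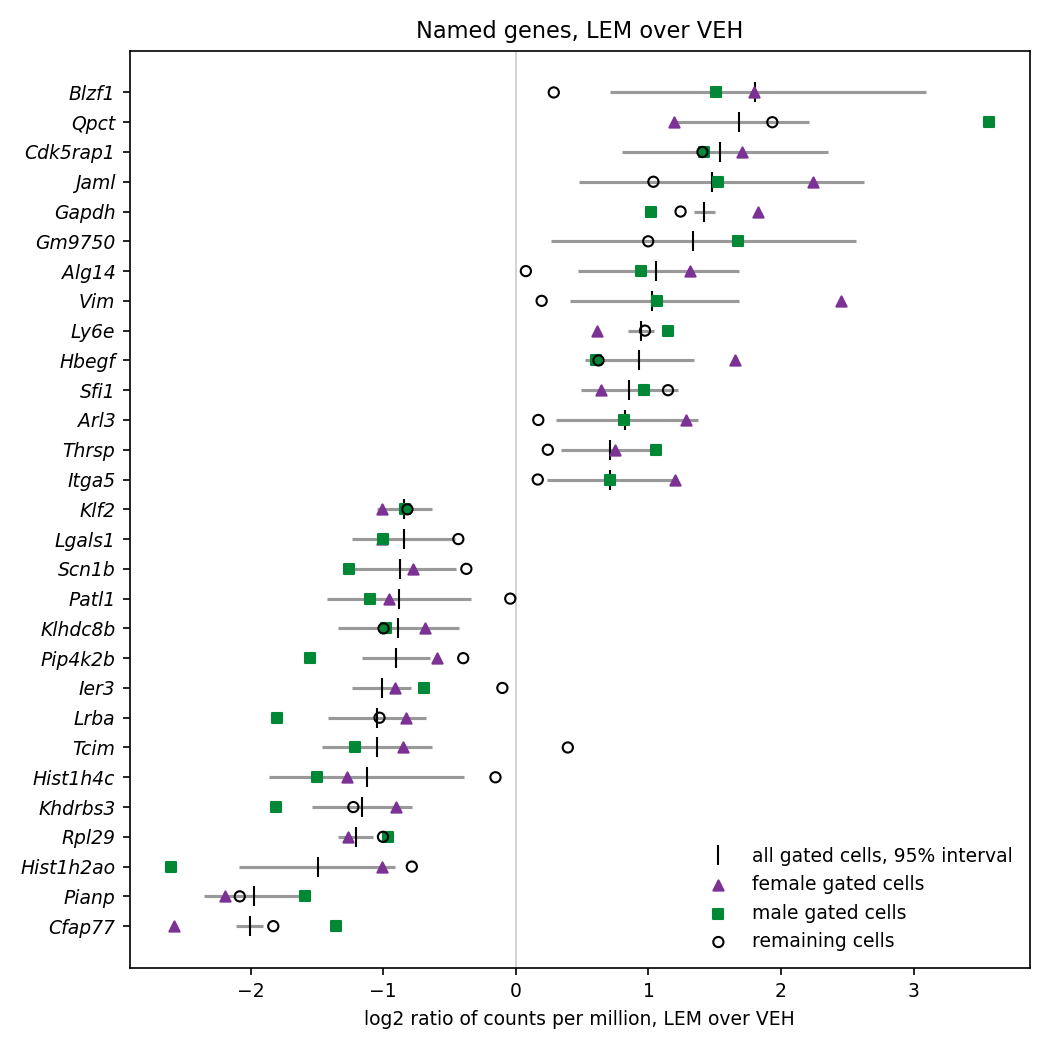
Log2 ratio of CPM, LEM over VEH, for the 29 named genes with counts in both libraries; black ticks and grey lines are all gated cells with exact 95% intervals for counting error, purple triangles female gated cells, green squares male gated cells and open circles remaining cells. Genes such as Cfap77, Pianp and Qpct had open circles near the gated values, whereas Tcim had 0.39 in remaining and -1.05 in gated cells; Gm9750 has no female point because it had 0 counts in female VEH cells.

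Immediate early and heat shock genes were lower in gated LEM cells in 21 of 22, against 43.1% of all genes (median -0.24, remaining -0.19), with Dusp1, a phosphatase that ends MAP kinase signalling, at 598 and 414 CPM (-0.53) and Fosb at 213 and 153 CPM (-0.47). Chemokines were mixed, with Ccl2 at 39.7 and 63.7 CPM (0.68), Ccl4 at 1951 and 1521 CPM (-0.36) and Ccl3 at 1420 and 1366 CPM (-0.06). Ccl2 had counts in 19.2% of gated VEH and 16.7% of gated LEM cells. Its ratio was 1.23 among female cells, 0.35 (-0.20 to 0.93) among male cells and -0.10 in remaining cells. Il1b, detected in under 10% of gated cells, was at 11.8 CPM in VEH and 39.3 CPM in LEM, but 67 of its 126 LEM counts lay in 1 cell. Glycolysis genes (median 0.07), cathepsins (-0.02), lysosomal genes (0.03) and ribosomal proteins (-0.03) lay close to the median of all genes.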

How the data were processed

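Single-cell 5′ RNA-seq UMI counts were analysed for 1 VEH and 1 LEM library, each of pooled microglia. The deposited values were whole-number counts per gene and cell, made by the authors with Cell Ranger 8.0.0 (per the submitters' processing notes) on mm10, for 32285 genes. The study's methods name SoupX for free RNA and filters on genes, counts and mitochondrial share; the files held cells with at least 501 genes, at most 19999 counts and at most 2.50% mitochondrial counts, and whether SoupX changed the deposited counts is not given in the sources used here. All shares use the 42766 cells of the files as their total; the study states a different number of microglia, and the filter behind that difference is not given in the sources used here. Cells are numbered without barcodes, so barcodes shared between libraries were not counted.

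Counts were summed per class of cells and library and scaled to CPM by total counts. Ratios have exact conditional 95% intervals and shares exact Clopper-Pearson intervals, both for counting error only, since each treatment is 1 pool of mice. The intervals of ratios do not cover the spread of counts between cells. No test was made and cells were not treated as replicates. Genes detected in 10% of cells of either class entered a comparison, and called means a log2 ratio of 1 between classes or 0.5 between libraries. Shares of cells with a gene were also computed for 2000 counts per cell, which left out 1 and 2 gated cells (VEH, LEM) and 1304 and 1213 remaining ones. State shares were also scaled to 6000 counts.

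The members and gene lists were chosen with earlier results of these data known. Beyond the lists, named genes were the 15 highest and 15 lowest ratios with the same sign in the 4 pools (gated over remaining), or with the same sign and an interval without 0 in both sexes (LEM over VEH). Doublets were called per library with Scrublet (scanpy 1.11.5, expected rate 0.1), kept, and removed as an alternative. Other alternatives were the gate limits, a gate scaled to depth, depth-weighted remaining cells, detection minimums, scaling, each sex, each library and removal of interferon cells. Genes with near-identical copies (Gapdh, Rpl29, Rps2, Rps26, Fabp5, Lilrb4a, Gm9750 and histones) are uncertain. Some genes are not reported here. Scripts were tested on simulated data. Promoters came from RefSeq (GRCm38.p6). Sums and ratios used pandas 2.3.3 and numpy 2.4.6 under Python 3.11.15, intervals scipy 1.17.1, and plots matplotlib 3.10.9.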

Additional observations from a re-analysis of the deposited data

Results flagged for a closer look

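Inside the gate, 11 of 540 genes tested on the lists (2.04%, against 63 of all 8741 genes, 0.721%) had log2 ratios of LEM over VEH past 0.3 in opposite directions in female and male cells, with each interval away from 0. The difference between the sexes was not tested, and each sex is 1 pool per library. Fabp5, a fatty acid binding protein whose pseudogenes can share reads, was at -1.06 in female and 0.81 in male cells, and Igf1 at -0.50 and 1.17. Igf1 stood at 95.3 CPM in female VEH, 67.5 CPM in female LEM, 41.4 CPM in male VEH and 93.2 CPM in male LEM cells, so both VEH pools lay outside the range of the LEM pools. H2-DMa went from 74.3 to 142 CPM in female (0.93) and from 185 to 88.6 CPM in male cells (-1.06).

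The interferon response genes Herc6 (1.11 and -1.04) and Ifitm3 (0.89 and -0.54) and the receptor Cd300lf (0.80 and -0.50) were higher in female and lower in male LEM cells. The protease Adamts1 (-0.45 and 0.39), the mitochondrial genes mt-Nd1 (-0.35 and 0.30) and mt-Nd5 (-0.30 and 0.38), and Rps26 (-0.40 and 0.30) had the opposite order. Rps2 was at 1.68 in female and -0.62 in male cells, and both ribosomal genes have near-identical copies.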

How the results depend on the processing

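No paired analysis was possible because each treatment is 1 library and no test was made. The share ratio of 0.30 stayed above 0 in every alternative run. It was 0.0226 among male cells, where its interval (-0.43 to 0.48) held 0. Its interval also held 0 with a minimum of 20 (0.25), MHC class II under 20 (0.24), the scaled gate (0.24), cells of at least 2000 counts (0.27) and without doublets (0.24). For gated over remaining cells, the late DAM median of 1.89 was 1.46 with depth-weighted remaining cells and 2.08 by median of ratios. The homeostatic median of -0.76 was -0.68, -0.57 by median of ratios and -0.85 without doublets. Genes at least 2-fold lower (254) numbered 514 with the scaled gate, 445 with a minimum of 20, 8434 with no detection minimum and 124 by median of ratios, and higher genes (260) 2097 with no detection minimum. For LEM over VEH inside the gate, genes past 0.5 and -0.5 (549 and 365) numbered 1499 and 795 in female cells, 1142 and 1203 in male cells, 985 and 1049 with a minimum of 20, 913 and 650 with 5% detection, and 3703 and 2894 with no minimum, and the lower ones 583 with the scaled gate. Of the 549 and 365, the scaled gate shared 174 and 156. The homeostatic median of 0.06 was 0.0178 among male cells and -0.0151 without doublets, and that of cathepsins went from -0.02 to 0.0142 without doublets. The interferon median was -0.29 among male cells. The cause of these shifts was not tested. Of the 30 genes named for LEM over VEH, 29 kept their sign with the scaled gate, where Patl1 did not, and 30 in the other settings. With 172 and 282 gated cells and 1 pool of mice each, counting error limits low genes and the spread between mice is unknown.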
